A study of Mus musculus with 18 samples.

Results

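The data are read counts per gene from the livers of 12 female C57BL/6 mice, 3 in each of 4 groups, out of 18 mice in the series. They were used to ask whether livers whose hepatic stellate cells lack the aryl hydrocarbon receptor (AHR) respond to the dioxin TCDD differently from livers in which the receptor gene is intact. The 4 groups are dHSC mice (AhRΔHSC, AHR deleted in hepatic stellate cells) given TCDD, dHSC mice given vehicle, WT mice given TCDD, and WT mice given vehicle. The study's design names the WT mice AhRfl/fl: their Ahr gene carries loxP sites and no deletion. TCDD was gavaged at 100 µg/kg every 4 days in peanut oil, peanut oil alone served as vehicle, and dosing went on over 92 days. All 4 groups share strain, sex and schedule, and the labels used here do not name the Cre driver that deletes the gene in dHSC mice. The quantity reported, for all 55536 genes in the files, is the difference of responses: the log2 change with TCDD in dHSC livers minus the log2 change with TCDD in WT livers. A negative difference means a smaller rise or a deeper fall in dHSC livers. Each library is from 1 numbered mouse, so the p-values rest on the spread among 3 livers per group. The fit also took in the 6 livers of a genotype not described here, which share the estimate of spread and enter no comparison here.

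AHR is a ligand-activated transcription factor. Bound by TCDD, it enters the nucleus, pairs with ARNT and binds DNA at sites with the core GCGTG, and in liver it switches on the cytochromes of the CYP1 family, the AHR repressor Ahrr and Tiparp, an enzyme that restrains AHR. Hepatic stellate cells store vitamin A in the space between hepatocytes and the sinusoids. In a scarring liver they can turn into myofibroblasts, contractile cells that lay down collagen. Hepatocytes make up most of a liver's RNA, and each library here is whole liver, so a change within stellate cells is diluted by the RNA of all other cells.

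The smallest of the 12 libraries held 12706490 counts (dHSC TCDD replicate 6) and the biggest 23294076 (WT vehicle replicate 7). Levels are counts scaled to library size and composition (CPM). Of these libraries, 3 need care. In dHSC TCDD replicate 18 and dHSC vehicle replicate 17 the share of counts outside protein-coding genes was 4.25% and 2.67%, against at most 1.76% in the other 10 libraries, and they stood apart on the first principal component. Mitochondrially encoded genes took 28.4% of counts in dHSC TCDD replicate 18. In WT vehicle replicate 1 the summed level of 12 genes of skeletal muscle was 1845 CPM, the next highest library having 4.37 CPM, and it had 163 CPM over 3 adipocyte markers, against at most 8.58. Liver identity was plain in all 12: 5 hepatocyte markers summed to 48072 CPM or more in every library. The 12 stellate cell markers summed to 489.6 to 861 CPM, and 1 of them, Lrat, had no count in any library. Ahr itself (ENSMUSG00000019256, chromosome 12, 35497974 to 35535038, GRCm38 here and below) gave 58.3, 60.8 and 23.2 CPM in dHSC TCDD livers and 45.5, 40.003 and 32.7 in dHSC vehicle livers, and 56.6, 53.4 and 44.6 in WT TCDD livers and 32.7, 51.8 and 69.97 in WT vehicle livers. The groups overlap, and the difference of responses was 0.26 ± 0.61 (SE; 95% interval -1.04 to 1.57). The labels do not give the deleted stretch of the gene and most of the RNA is not from stellate cells, so this level checks no label.

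No gene passed the test in the difference of responses. Of 14835 genes tested with edgeR's quasi-likelihood test, 0 (0%) had an adjusted p under 0.05, the smallest being 0.431 for Cd14. At an unadjusted p under 0.05 there were 233 genes (1.57%), of which 147 (0.991%) had a positive and 86 (0.58%) a negative difference. This balance rests on single libraries: 133 were positive and 266 negative without dHSC TCDD replicate 18, and 112 positive and 176 negative without WT vehicle replicate 1. Without both of these and dHSC vehicle replicate 17 the counts were 101 and 251, and over all alternatives tried the total lay between 114 and 491. DESeq2, run on the same counts, called 3 genes, all with a negative difference: Cd14 (adjusted p = 0.000509), Ccl24 (adjusted p = 0.0214) and the predicted gene Gm43305 (adjusted p = 0.0214). The test could see only large differences. The median standard error of a difference was 0.62 on the log2 scale over all genes, and 0.48 for the 6601 genes between 10 and 100 CPM. The 95% interval lay within 2-fold in either direction for 2157 genes (14.5%), and for the other genes the interval includes a difference of 2-fold or more.

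The response to TCDD had much in common in both genotypes. In dHSC livers 379 genes (2.55%) passed the test, 254 higher (1.71%) and 125 lower (0.843%) with TCDD. In WT livers 798 genes (5.38%) passed, 509 higher (3.43%) and 289 lower (1.95%). Of these, 325 passed in both with the same direction, 217 higher and 108 lower, which is 85.8% of the dHSC list and 40.7% of the WT list, and 0 passed in opposite directions. Among the 379 genes called in dHSC livers, 376 had the same sign in WT livers, and among the 798 called in WT livers, 785 had the same sign in dHSC livers. Of the 54 called in dHSC alone, 8 had an unadjusted p under 0.05 in the difference, and of the 473 called in WT alone, 76 did. For the others the difference had an unadjusted p of 0.05 or more, which shows neither a different nor an equal response. In the plot of dHSC against WT responses nearly all of these genes lie where both responses have the same sign. Without dHSC vehicle replicate 11 the dHSC list held 169 genes, and without WT TCDD replicate 2 the WT list held 445.

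**Figure D1:**
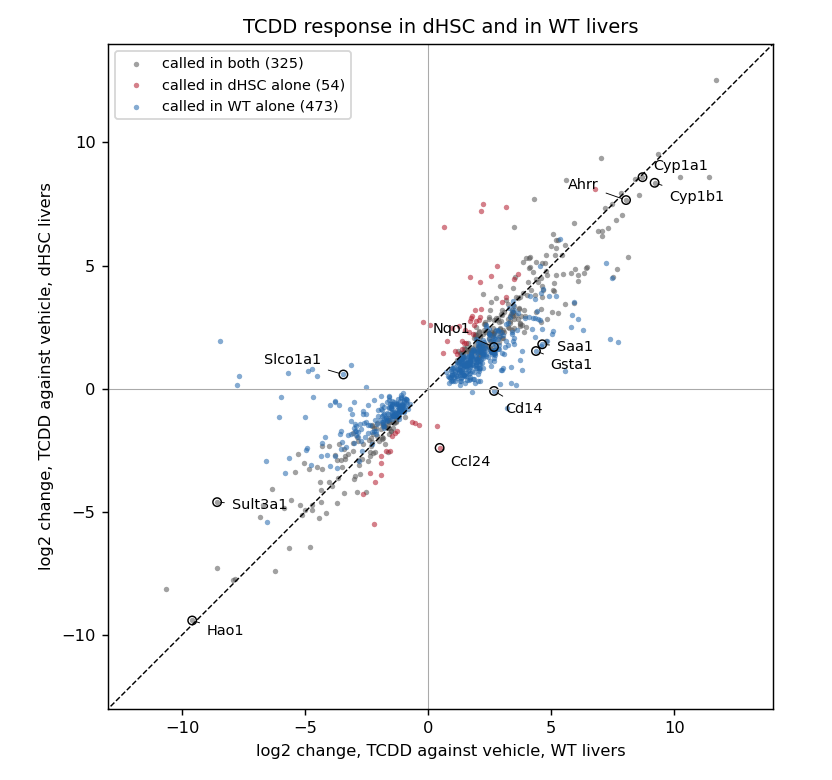
Log2 change with TCDD in dHSC livers (vertical axis) against that in WT livers (horizontal axis) for the genes called in at least 1 genotype, with the dashed line at equal responses and 11 genes ringed. Genes called in both (grey, 325), in dHSC alone (red, 54) and in WT alone (blue, 473) lie mostly where both responses have the same sign (376 of the 379 called in dHSC livers and 785 of the 798 called in WT livers), with Cd14 and Ccl24 below the dashed line and Slco1a1 and Sult3a1 above it.

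To ask which way the difference leaned without favouring either genotype, genes were taken by the mean of both responses, which called 1730 genes (11.7%), 1075 higher (7.25%) and 655 lower (4.42%). Read along the direction of that mean response, the median change was 1.37 in dHSC livers and 1.68 in WT livers on the log2 scale. The dHSC response was the smaller for 1214 of the 1730 genes (70.2%), and the median difference over all 1730 was -0.28. Of the 1730 genes, 88 had an unadjusted p under 0.05 in the difference, 80 with a smaller and 8 with a larger dHSC response. Over all 14835 genes tested, 233 (1.57%) had such a p. The responses of both genotypes correlated with r = 0.92 across the 1730 genes and with r = 0.75 over all genes tested. The 1730 genes were chosen by the mean of both responses, which favours agreement, and genes are not independent replicates. A score per liver, the median over these genes of the log2 level relative to the mean of the 12 livers and read in the same direction, was 0.41, 0.43 and 0.95 in dHSC TCDD livers and -0.71, -0.72 and -0.63 in dHSC vehicle livers. In WT livers it was 0.97, 0.76 and 0.83 with TCDD and -0.46, -1.05 and -0.76 with vehicle. The TCDD livers of both genotypes overlap, since dHSC TCDD replicate 18 scored as high as the WT TCDD livers while replicates 6 and 12 lay below all 3. Leaving out WT vehicle replicate 1 together with both dHSC libraries that stand apart, the median difference was -0.58. With 1 library left out it lay between -0.45 without WT vehicle replicate 1 and -0.16 without WT vehicle replicate 7, and it was -0.44 without dHSC TCDD replicate 18.

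Several direct targets of AHR rose steeply in both genotypes. Of 14 target genes tested, 7 were called higher in dHSC livers and 9 in WT livers (over all genes tested, 1.71% and 3.43% were called higher), the same 7 among them, and 0 were called in the difference. The lists below share this background, with 0.843% of all genes tested called lower in dHSC livers and 1.95% in WT livers. In the difference, 0.991% were higher and 0.58% lower at an unadjusted p under 0.05. Among the 1075 genes higher in the mean response the median difference was -0.29, and among the 655 lower ones 0.27. A lean of that kind is thus not particular to a list that rises or falls with TCDD. The lists were chosen with earlier results of these data known. The median change of the AHR targets was 1.99 in dHSC livers and 2.79 in WT livers. Their median difference was -0.45, against 0.03 over all genes tested. It was -0.77 without WT vehicle replicate 1 and -0.27 without dHSC TCDD replicate 18. The promoters of 4 of them are shown because they carry the core motif that AHR binds and because these genes are classical readouts of the receptor. Each line is the 250 bases before the start of transcription, 5′ to 3′ on the gene's strand, from RefSeq on GRCm38, with capitals marking GCGTG or its reverse complement CACGC. The RefSeq start can lie within the GENCODE span given below:
Cyp1a1, chr9:57697363-57697612, plus strand: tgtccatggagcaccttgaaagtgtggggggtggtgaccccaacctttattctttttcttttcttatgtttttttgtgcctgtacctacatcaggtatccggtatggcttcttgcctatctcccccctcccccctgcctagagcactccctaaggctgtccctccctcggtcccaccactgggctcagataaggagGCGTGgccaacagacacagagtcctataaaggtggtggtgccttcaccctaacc
Cyp1b1, chr17:79715062-79715311, minus strand: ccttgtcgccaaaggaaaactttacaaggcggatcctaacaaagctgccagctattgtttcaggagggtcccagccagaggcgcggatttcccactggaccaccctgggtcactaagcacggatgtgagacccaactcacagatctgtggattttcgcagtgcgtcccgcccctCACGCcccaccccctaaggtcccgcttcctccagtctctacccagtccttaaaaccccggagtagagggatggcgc
Ahrr, chr13:74292332-74292581, minus strand: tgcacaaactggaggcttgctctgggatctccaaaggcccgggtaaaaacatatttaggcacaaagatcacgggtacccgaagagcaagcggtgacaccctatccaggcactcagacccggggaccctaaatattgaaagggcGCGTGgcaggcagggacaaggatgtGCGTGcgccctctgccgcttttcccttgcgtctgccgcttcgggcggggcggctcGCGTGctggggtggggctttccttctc
Tiparp, chr3:65528197-65528446, plus strand: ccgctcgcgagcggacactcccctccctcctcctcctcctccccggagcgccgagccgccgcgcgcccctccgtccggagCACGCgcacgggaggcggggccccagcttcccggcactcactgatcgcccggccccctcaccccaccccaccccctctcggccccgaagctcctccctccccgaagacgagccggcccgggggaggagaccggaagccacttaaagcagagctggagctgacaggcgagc
The window holds 1 match in Cyp1a1, Cyp1b1 and Tiparp each and 3 in Ahrr, and 0 in Cyp1a2 and Nqo1. Such matches are common: 28.2% of all 32851 RefSeq windows of this length hold at least 1, as do windows of 47.2% of the 10871 genes tested that have one, and of 35.6% of the 160 called higher in both genotypes. A match describes these letters, not a bound site.

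Cyp1a1, the cytochrome that is the standard marker of AHR activity (ENSMUSG00000032315, chromosome 9, 57687928 to 57703824), gave 5486, 5576 and 2449 CPM in dHSC TCDD livers and 16.7, 3.24 and 15.1 in dHSC vehicle livers, and 5873, 8328 and 5089.6 in WT TCDD livers and 33.2, 5.04 and 8.04 in WT vehicle livers. Every TCDD liver lay far above every vehicle liver, and the lowest TCDD value is dHSC replicate 18. Its log2 change was 8.59 ± 0.92 (adjusted p = 8.41e-05) in dHSC livers and 8.70 ± 0.92 (adjusted p = 4.56e-05) in WT livers, and the difference of responses was -0.11 ± 0.94 (SE; 95% interval -2.10 to 1.88). Cyp1b1, a cytochrome that hydroxylates estrogens and is expressed in stellate cells and other mesenchyme as well, gave 937, 1038 and 291 CPM in dHSC TCDD livers and 1.54, 2.14 and 3.24 in dHSC vehicle livers, and 1397, 1037 and 1223 in WT TCDD livers and 2.52, 1.01 and 2.70 in WT vehicle livers. It rose by 8.36 ± 0.74 (adjusted p = 9.53e-06) in dHSC livers and by 9.19 ± 0.76 (adjusted p = 4.52e-06) in WT livers, with a difference of -0.83 ± 0.78 (SE; 95% interval -2.49 to 0.82). The dHSC TCDD replicates 6 and 12 lay near the WT TCDD livers, and replicate 18 far below them. Ahrr, the AHR repressor, rose to 66.8, 69.9 and 29.4 CPM in dHSC livers and to 61.2, 63.04 and 60.6 CPM in WT livers, with at most 0.517 CPM in any vehicle liver. Its difference was -0.37 ± 0.83 (SE; 95% interval -2.14 to 1.40). Tiparp, which attaches ADP-ribose to AHR, rose by 3.26 ± 0.36 (adjusted p = 8.41e-05) in dHSC livers and 3.68 ± 0.37 (adjusted p = 2.44e-05) in WT livers, with a difference of -0.42 ± 0.47 (SE; 95% interval -1.41 to 0.57). For Cyp1a2, the major CYP1 enzyme of liver, the difference was -0.80 ± 0.73, and for Pmm1, a sugar phosphate mutase, it was -0.62 ± 0.54. The other sign was seen for Aldh3a1, an aldehyde dehydrogenase, at 4.30 ± 2.15, on levels of at most 2.24 CPM, the highest of them in WT vehicle replicate 1, and without that library it was -2.48. The 6 genes before it have intervals that span 0, and each interval reaches beyond 1 on the log2 scale on the negative side. Without the 2 dHSC libraries that stand apart the sign turned for Cyp1a1, to 0.39, and for Ahrr, to 0.34. Without WT vehicle replicate 1 the Cyp1a1 difference was -1.35, and without WT vehicle replicate 13 that of Ahrr was -1.73. The call of Cyp1a2 in dHSC livers was lost without dHSC vehicle replicate 11 (adjusted p = 0.0596). With 1 library left out the difference ranged from -0.72 to -0.10 for Tiparp (nearest 0 without WT TCDD replicate 14), from -1.27 to -0.33 for Cyp1a2 (without WT vehicle replicate 13), from -0.90 to -0.22 for Pmm1 (without dHSC vehicle replicate 17) and from -1.14 to -0.44 for Cyp1b1 (without dHSC TCDD replicate 18).

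**Figure D2:**
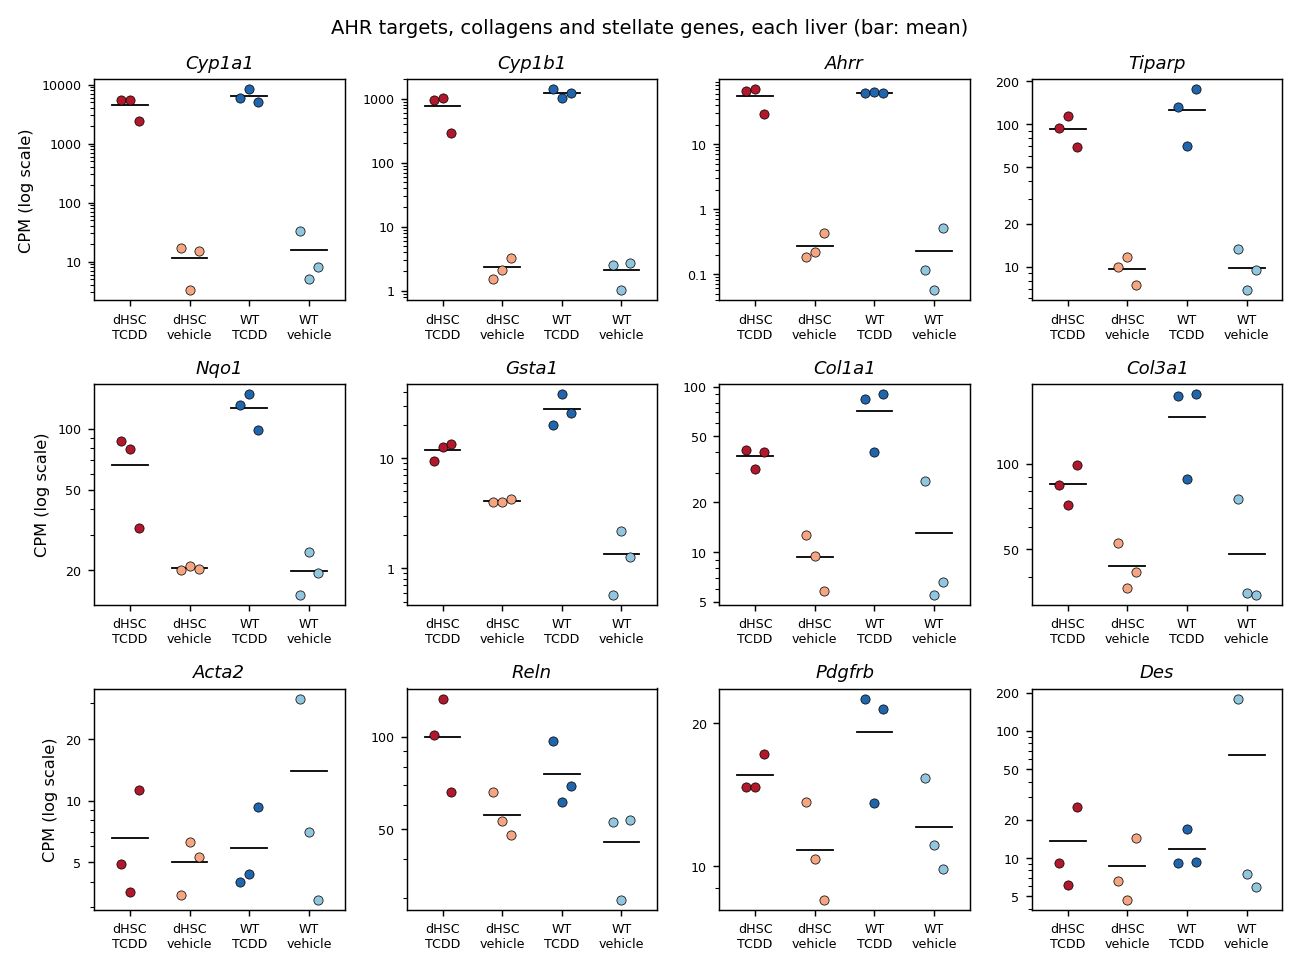
CPM on a log scale (axes differ between panels) in each liver of dHSC TCDD, dHSC vehicle, WT TCDD and WT vehicle mice, with a bar at the mean of 3. The CYP1 genes, Ahrr and Tiparp are far higher in TCDD livers of both genotypes, Gsta1 in dHSC TCDD livers lies between 9.44 and 13.4 CPM, below all WT TCDD livers, and WT vehicle replicate 1 is the highest of its group for both collagens, Acta2, Pdgfrb and Des.

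The most negative differences among the AHR targets were those of Gsta1 and Nqo1, detoxifying enzymes that AHR shares with NRF2, a transcription factor active under oxidative stress. Gsta1, a glutathione transferase (ENSMUSG00000074183, chromosome 9, 78230656 to 78242684), gave 9.44, 12.5 and 13.4 CPM in dHSC TCDD livers and 4.03, 3.98 and 4.22 in dHSC vehicle livers, and 20.1, 38.3 and 25.5 in WT TCDD livers and 0.573, 2.19 and 1.26 in WT vehicle livers. With TCDD every dHSC liver lay below every WT liver, and with vehicle every dHSC liver lay above every WT liver. The change was 1.53 in dHSC livers (adjusted p = 0.116) and 4.38 ± 0.53 (adjusted p = 1.44e-04) in WT livers, and the difference was -2.84 ± 0.67 (SE; 95% interval -4.26 to -1.43), with an adjusted p of 1 in edgeR's quasi-likelihood test. Its close relative Gsta2 could share reads with it. Part of it lay in the vehicle groups, since dHSC exceeded WT by 1.60 with vehicle and the log2 difference of dHSC against WT was -1.25 with TCDD. Nqo1, a quinone reductase, gave 87.4, 79.3 and 32.5 CPM in dHSC TCDD livers and 20.1, 21.1 and 20.4 in dHSC vehicle livers, and 131, 148 and 98.6 in WT TCDD livers and 15.1, 24.8 and 19.5 in WT vehicle livers. It rose by 1.69 ± 0.32 (adjusted p = 0.00786) in dHSC livers and 2.67 ± 0.33 (adjusted p = 1.56e-04) in WT livers, with a difference of -0.98 ± 0.44 (SE; 95% interval -1.91 to -0.04), and no dHSC TCDD liver reached the lowest WT TCDD liver. Of 18 NRF2 targets tested, 2 were called higher in dHSC livers and 7 in WT livers. The difference was negative for 15 of the 18, against 6941 of all 14835 genes tested. Among the 1730 genes called in the mean response the dHSC response was the smaller for 70.2%. The median difference of the NRF2 targets was -0.69 (-0.44 without WT TCDD replicate 8). At an unadjusted p under 0.05 in the difference there were 4, all lower: Gsta1, Nqo1, Hmox1 and Pgd. Hmox1, which breaks down heme, had a difference of -1.25 ± 0.54, and Pgd, a source of NADPH, of -0.67 ± 0.30. Nat8, which finishes the mercapturic acids that glutathione conjugates become (ENSMUSG00000030004, chromosome 6, 85830388 to 85832082), gave 4.06, 5.29 and 3.44 CPM in dHSC TCDD livers and 0.860, 1.18 and 1.27 in dHSC vehicle livers, and 6.91, 26.5 and 13.6 in WT TCDD livers and 0.344, 0.616 and 0.746 in WT vehicle livers. Its difference was -2.81 ± 0.70 (SE; 95% interval -4.29 to -1.33). The dHSC call of Nat8 (adjusted p = 0.0456) was lost in 9 of the 12 fits that left out 1 library. Without dHSC TCDD replicate 18 the Nqo1 difference was -0.65, and 5 NRF2 targets were called in dHSC livers.

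No gene that marks resting stellate cells passed the test for a change with TCDD in either genotype. Of 18 tested with edgeR's quasi-likelihood test, 0 were called in dHSC livers (2 at an unadjusted p under 0.05, 1 by DESeq2) and 0 in WT livers (5 and 0 by those counts). None had an unadjusted p under 0.05 in the difference, and the median difference was 0.02. That median ran from -0.10 without dHSC TCDD replicate 12 to 0.34 without dHSC TCDD replicate 18. Their median change was 0.02 in dHSC livers and 0.12 in WT livers. Reln, a secreted glycoprotein that in liver marks stellate cells, gave 101, 133 and 65.98 CPM in dHSC TCDD livers and 66.1, 53.2 and 47.9 in dHSC vehicle livers, and 96.99, 61.5 and 69.2 in WT TCDD livers and 52.7, 29.5 and 53.8 in WT vehicle livers. Its difference was 0.10 ± 0.41 (SE; 95% interval -0.76 to 0.97), an interval that lies within 2-fold. Pdgfrb, the receptor through which platelet-derived growth factor drives stellate cells to divide, gave 14.7, 14.7 and 17.3 CPM in dHSC TCDD livers and 13.6, 10.4 and 8.51 in dHSC vehicle livers, and 22.5, 13.6 and 21.5 in WT TCDD livers and 15.3, 11.1 and 9.87 in WT vehicle livers, with a difference of -0.15 ± 0.37 (SE; 95% interval -0.94 to 0.64). For both genes the genotypes overlap with TCDD and with vehicle, and both intervals of the difference lie within 2-fold. Every WT TCDD liver lay above every WT vehicle liver for Reln. For Pdgfrb every dHSC TCDD liver lay above every dHSC vehicle liver. Lrat, the enzyme that stores vitamin A as ester, had 0 counts in all 12 libraries, as had Timp1, an inhibitor of matrix proteases. Each lies in the span of another gene (Rbm46os and Syn1), and neither could be assessed. In whole liver fewer cells of a type and less RNA per cell cannot be told apart, here or for any cell type below. Without 1 library or another the sign of the Reln difference turned, with a range of -0.17 to 0.33, its lowest without dHSC TCDD replicate 12. For Pdgfrb it was -0.36 without WT vehicle replicate 1.

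The contractile genes of myofibroblasts rest on WT vehicle replicate 1, the library with muscle transcripts. Acta2, the smooth muscle actin by which myofibroblasts are recognised, gave 4.87, 3.56 and 11.3 CPM in dHSC TCDD livers and 3.44, 6.26 and 5.28 in dHSC vehicle livers, and 3.98, 4.39 and 9.26 in WT TCDD livers and 31.6, 7.01 and 3.27 in WT vehicle livers. Only WT vehicle replicate 1 stands out, and the difference was 1.64 ± 1.55 (SE; 95% interval -1.65 to 4.94), or 0.19 without that library. Des, an intermediate filament of both stellate and muscle cells, gave 9.15, 6.18 and 25.3 CPM in dHSC TCDD livers and 6.61, 4.71 and 14.5 in dHSC vehicle livers, and 9.20, 17.1 and 9.38 in WT TCDD livers and 179.9, 7.57 and 5.91 in WT vehicle livers, with a difference of 3.09 ± 1.57 (SE; 95% interval -0.25 to 6.43), or -0.17 without that library. Tpm2, a tropomyosin, reached 379 CPM in WT vehicle replicate 1 and at most 11.7 CPM elsewhere, and its difference was 3.87 ± 1.48 with and 0.09 without it. Over the 13 contractile genes tested, 0 were called in dHSC livers (2 at an unadjusted p under 0.05, 1 by DESeq2). In WT livers 2 were called (Cnn2 higher, Tpm2 lower), with 3 and 1 by those counts. The median difference was 1.19, or 0.03 without WT vehicle replicate 1. The same library is alone at the top for Ttn, the giant spring protein of muscle, at 108 CPM against at most 1.29, for Pygm, muscle glycogen phosphorylase, at 97.8 CPM against at most 2.72, and for Ldhb and the cartilage protein Cilp. Adipoq, the fat cell hormone, had 20.1 CPM there and at most 0.844 elsewhere, with a difference of 8.80 ± 3.67, or 3.27 without that library. Ttn, Pygm, Ldhb and Cilp are among the 10 genes with the smallest p and a positive difference. Without it their differences were 2.90, 0.64, 0.98 and 2.57, against 10.38, 5.07, 4.10 and 5.21 with it. Of the 147 genes with an unadjusted p under 0.05 and a higher difference, 72 had their highest level of the 12 livers in WT vehicle replicate 1, 38 of them over 5 times the next. WT vehicle enters the difference with a plus sign, so a peak there raises it. The count of 0 among the 86 lower ones follows from that and is no comparison. The share over all genes tested was not counted. The split of 147 and 86 turns without that library, as given above.

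Mean levels of Col1a1, Col1a2 and Col3a1 were higher in TCDD livers of both genotypes, and 2 of 7 fibrillar collagens passed the test in WT livers and 0 in dHSC livers, with no difference called between them. Col1a1, the main chain of scar collagen (ENSMUSG00000001506, chromosome 11, 94936224 to 94953042), gave 41.5, 31.9 and 40.3 CPM in dHSC TCDD livers and 12.7, 9.50 and 5.84 in dHSC vehicle livers, and 84.03, 40.3 and 90.4 in WT TCDD livers and 27.1, 5.49 and 6.54 in WT vehicle livers. In dHSC mice every TCDD liver lay above every vehicle liver, as in WT mice. The change was 2.02 ± 0.54 in dHSC livers (adjusted p = 0.0622) and 2.46 ± 0.54 (adjusted p = 0.0128) in WT livers. The difference was -0.44 ± 0.73 (SE; 95% interval -1.99 to 1.11). Col3a1, its partner in scar fibres, gave 84.2, 71.5 and 98.7 CPM in dHSC TCDD livers and 52.5, 36.6 and 41.6 in dHSC vehicle livers, and 172, 88.4 and 176 in WT TCDD livers and 75.04, 34.97 and 34.5 in WT vehicle livers. Its change was 0.96 in dHSC livers (adjusted p = 0.346) and 1.59 ± 0.42 (adjusted p = 0.0368) in WT livers, with a difference of -0.63 ± 0.58 (SE; 95% interval -1.87 to 0.61). For Col1a2 the changes were 1.66 and 1.90, with adjusted p = 0.141 in dHSC livers and 0.0513 in WT livers, and a difference of -0.24 ± 0.74. In dHSC livers 4 of the 7 had an unadjusted p under 0.05 and DESeq2 called 2. In WT livers 5 had such a p and DESeq2 called 4. Over the list the median difference was -0.43. WT vehicle replicate 1 had the highest level of its group for all 3 genes, and without it the differences were -1.56 for Col1a1, -1.11 for Col3a1 and -1.14 for Col1a2, and the median of the list -1.11. The list's median was nearest 0 without WT vehicle replicate 7, at -0.0794, as was the Col1a1 difference. The WT call of Col1a1 was lost without WT TCDD replicate 14, WT vehicle replicate 7 or WT vehicle replicate 13 (adjusted p = 0.0511, 0.0631 and 0.0667), and that of Col3a1 without these or WT TCDD replicate 2 (adjusted p from 0.128 to 0.17).

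Among other matrix proteins Emilin1 was one of the genes with the smallest p in the difference, and it is not on the list counted below. This glycoprotein of elastic fibres (ENSMUSG00000029163, chromosome 5, 30913402 to 30921277) gave 33.1, 35.6 and 31.5 CPM in dHSC TCDD livers and 33.3, 30.4 and 25.4 in dHSC vehicle livers, and 72.03, 61.1 and 70.4 in WT TCDD livers and 34.5, 19.2 and 29.4 in WT vehicle livers. The WT TCDD livers stand above all others, and the dHSC TCDD livers overlap both vehicle groups. Its change was 0.17 in dHSC livers (adjusted p = 0.923) and 1.29 ± 0.23 (adjusted p = 0.00362) in WT livers, with a difference of -1.12 ± 0.33 (SE; 95% interval -1.81 to -0.43). Postn, periostin, a matricellular protein of wounds, gave 12.2, 14.1 and 7.59 CPM in dHSC TCDD livers and 15.8, 13.8 and 10.3 in dHSC vehicle livers, and 38.1, 33.7 and 31.3 in WT TCDD livers and 25.6, 11.6 and 15.2 in WT vehicle livers, and its difference was -1.21 ± 0.44 (SE; 95% interval -2.15 to -0.27). Neither difference passed edgeR's quasi-likelihood test after adjustment. Emilin1 was named for its small p and Postn after its values were seen. With TCDD every dHSC liver lay below every WT liver for both genes, a separation that follows partly from that choice. Eln, elastin, went the other way, with changes of 1.95 in dHSC livers and 0.78 in WT livers and a difference of 1.17 ± 0.67 (SE; 95% interval -0.25 to 2.60), and its dHSC call (adjusted p = 0.0451) was lost in 10 of the 12 fits that left out 1 library. Of 25 such genes 1 was called higher in dHSC livers and 3 in WT livers (Col4a2, Lox and Sparc). The difference was negative for 16 of 25, against 6941 of all 14835 genes tested, with a median of -0.24. The WT count was 7 without WT vehicle replicate 1 and 0 without WT TCDD replicate 14 or either other WT vehicle library. The median difference was -0.67 without WT vehicle replicate 1 and -0.0593 without WT vehicle replicate 7.

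Several enzymes that cut matrix rose in both genotypes. Mmp13, the main collagenase of mice (ENSMUSG00000050578, chromosome 9, 7272514 to 7283331), gave 14.8, 12.4 and 13.3 CPM in dHSC TCDD livers and 0.362, 0.368 and 0.844 in dHSC vehicle livers, and 23.2, 17.7 and 25.5 in WT TCDD livers and 0.172, 0.168 and 0.459 in WT vehicle livers. Both rises passed the test, at 4.69 ± 0.51 (adjusted p = 8.41e-05) in dHSC livers and 6.34 ± 0.56 (adjusted p = 8.42e-06) in WT livers, and the difference was -1.66 ± 0.69 (SE; 95% interval -3.12 to -0.19). Every dHSC TCDD liver lay below every WT TCDD liver. Mmp12, the elastase of macrophages, gave 8.56, 8.75 and 3.44 CPM in dHSC TCDD livers and 1.13, 0.884 and 0.352 in dHSC vehicle livers, and 19.8, 6.26 and 18.6 in WT TCDD livers and 0.573, 0.336 and 0.459 in WT vehicle livers, with a difference of -1.91 ± 0.82 (SE; 95% interval -3.64 to -0.17) and with overlap between the TCDD groups. For Mmp9, a gelatinase of neutrophils and macrophages, the change was 0.76 in dHSC livers (adjusted p = 0.75) and 3.00 ± 0.62 (adjusted p = 0.00862) in WT livers, with a difference of -2.23 ± 0.85 (SE; 95% interval -4.03 to -0.44). These 3 proteases are the members with an unadjusted p under 0.05. Of 17 matrix breakdown genes tested, 4 were called higher in dHSC livers and 7 in WT livers, the same 4 among them. The median difference of -0.02 rests on WT vehicle replicate 1: it was -0.69 without that library and -0.93 without it and both dHSC libraries that stand apart, and its highest value with 1 library left out was 0.18, without WT vehicle replicate 13. Among 21 genes of TGF-beta signalling, the pathway that drives collagen synthesis in myofibroblasts, 1 was called in dHSC livers and 3 in WT livers (between 1 and 5 in WT livers with 1 library left out, the highest without WT vehicle replicate 1). Tgfb2, a ligand, rose by 3.10 ± 0.56 (adjusted p = 0.00586) in dHSC livers and 3.43 ± 0.57 (adjusted p = 0.00161) in WT livers, with a difference of -0.33 ± 0.75, and Thbs1, which activates latent TGF-beta, had a difference of -1.16 ± 0.80, or -1.77 without WT vehicle replicate 1. The dHSC call of Mmp12 was lost without dHSC vehicle replicate 11 (adjusted p = 0.0536), and without dHSC vehicle replicate 5 the sign of the Tgfb2 difference turned, to 0.41.

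The gene with the smallest p in the difference was Cd14, the co-receptor with which macrophages sense endotoxin (ENSMUSG00000051439, chromosome 18, 36725067 to 36726798). It gave 4.94, 3.61 and 5.87 CPM in dHSC TCDD livers and 4.35, 5.75 and 5.28 in dHSC vehicle livers, and 16.2, 25.6 and 24.9 in WT TCDD livers and 4.70, 2.02 and 3.73 in WT vehicle livers. The 3 WT TCDD livers stand apart from all others, and the dHSC TCDD livers overlap the vehicle livers. The change was -0.09 ± 0.33 in dHSC livers (adjusted p = 0.989) and 2.67 ± 0.35 (adjusted p = 2.71e-04) in WT livers. The difference was -2.76 ± 0.48 (SE; 95% interval -3.78 to -1.75), with an adjusted p of 0.431 in edgeR's quasi-likelihood test and, as given above, 0.000509 in DESeq2. It ran from -3.04 to -2.49 when 1 library was left out. Ccl24, a chemokine of macrophages that draws eosinophils (ENSMUSG00000004814, chromosome 5, 135569937 to 135573049), gave 1.48, 0.544 and 0.931 CPM in dHSC TCDD livers and 3.58, 5.38 and 6.61 in dHSC vehicle livers, and 3.25, 3.13 and 5.002 in WT TCDD livers and 2.92, 1.96 and 3.39 in WT vehicle livers. The dHSC TCDD livers lie below all others, and the dHSC vehicle livers above all WT vehicle livers. It fell in dHSC livers, with a log2 change of -2.40 ± 0.46 (adjusted p = 0.00909), had a change of 0.46 in WT livers (adjusted p = 0.742), and its difference was -2.87 ± 0.63 (SE; 95% interval -4.20 to -1.53). Without the 2 dHSC libraries that stand apart its fall in dHSC livers no longer passed (adjusted p = 0.102).

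Several genes of monocytes and of the macrophages that gather in scars rose with TCDD in both genotypes. Of 13 tested, 5 were called in dHSC livers and 7 in WT livers. The difference was negative for 12 of the 13, against 6941 of all 14835 genes tested. Among the 1730 genes called in the mean response the dHSC response was the smaller for 70.2%. Of the 13, 4 had an unadjusted p under 0.05 in the difference, all lower: Chil3, Mmp12, Spp1 and Trem2. The median change was 1.26 in dHSC livers and 2.06 in WT livers. Spp1, osteopontin, made by macrophages and by bile duct cells, gave 98.3, 114 and 94.6 CPM in dHSC TCDD livers and 60.5, 30.1 and 78.4 in dHSC vehicle livers, and 217, 224 and 156 in WT TCDD livers and 49.2, 50.3 and 40.2 in WT vehicle livers. Every WT TCDD liver lay above every dHSC TCDD liver, and the difference was -1.23 ± 0.54 (SE; 95% interval -2.37 to -0.09). Trem2, a lipid receptor of scar macrophages, had 2.73, 1.68 and 1.58 CPM in dHSC TCDD livers and 1.09, 1.40 and 2.67 in dHSC vehicle livers, and 3.89, 2.28 and 4.30 in WT TCDD livers and 1.32, 0.841 and 0.631 in WT vehicle livers, with overlap between the TCDD groups and a difference of -1.68 ± 0.71 (SE; 95% interval -3.19 to -0.18). Gpnmb, a glycoprotein of the same cells, rose in both, by 6.42 ± 1.17 (adjusted p = 0.00618) in dHSC livers and 7.05 ± 1.19 (adjusted p = 0.00206) in WT livers, and its difference of -0.63 ± 1.42 became -2.58 without WT vehicle replicate 1. Markers of Kupffer cells, the resident macrophages, summed to 242 to 441 CPM in dHSC TCDD livers and 326 to 508 in dHSC vehicle livers, and 279 to 442 in WT TCDD livers and 147 to 444 in WT vehicle livers, ranges that overlap. Of 12 Kupffer cell genes, 0 were called in dHSC livers (0 also at an unadjusted p under 0.05 and by DESeq2). In WT livers 2 were called (Csf1r and Marco), with 3 and 3 by those counts. Marco, a scavenger receptor, had a difference of -1.71 ± 0.77. The dHSC count of monocyte and scar macrophage genes was 1 without dHSC vehicle replicate 11 and 2 without dHSC TCDD replicate 18, and the WT calls of Trem2, Marco and Csf1r were lost in 6, 8 and 3 of the 12 fits that left out 1 library.

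The mean level of neutrophil transcripts in dHSC TCDD livers rested mostly on a single liver. The 5 neutrophil markers summed to 10.3, 8.45 and 117 CPM in dHSC TCDD livers and 1.45, 1.84 and 4.36 in dHSC vehicle livers. They summed to 55.3, 77.9 and 77.1 CPM in WT TCDD livers and 1.26, 1.18 and 3.44 in WT vehicle livers. Thus dHSC TCDD replicates 6 and 12 lay below all WT TCDD livers, and replicate 18 above them. Every dHSC TCDD liver lay above every vehicle liver of either genotype. S100a8, an abundant calcium-binding protein of neutrophils, gave 3.98, 3.36 and 58.2 CPM in dHSC TCDD livers and 0.362, 0.589 and 1.76 in dHSC vehicle livers, and 21.3, 27.4 and 28.7 in WT TCDD livers and 0.459, 0.616 and 1.03 in WT vehicle livers, and its difference was -0.57 ± 1.38 (SE; 95% interval -3.50 to 2.36), or -3.14 without dHSC TCDD replicate 18. Its partner S100a9 had a difference of -1.08 ± 1.20, or -3.18 without that library and -0.59 without dHSC vehicle replicate 17. Of 10 neutrophil genes tested, 4 were called higher in dHSC livers and 8 in WT livers, and the dHSC count was 1 without dHSC TCDD replicate 18 or without any 1 dHSC vehicle library. Their median difference was -1.47, or -3.13 without dHSC TCDD replicate 18 and -0.66 without dHSC vehicle replicate 17, and the WT count was 5 without WT vehicle replicate 7. Of 6 B and plasma cell genes tested, 4 were called higher in each genotype, the median difference was -0.05, and it was -1.35 without dHSC TCDD replicate 18 and 0.43 without dHSC vehicle replicate 17. Without dHSC vehicle replicate 5 none of them was called in dHSC livers, and without WT vehicle replicate 13 the WT count was 1. The high mitochondrial share noted above is also that of dHSC TCDD replicate 18, and its part in these values was not tested. Of 13 mitochondrially encoded genes, 2 had an unadjusted p under 0.05 in the difference, both higher. Their median difference was 1.24, or -0.25 without dHSC TCDD replicate 18. The median change in dHSC livers was 0.64, or -0.78 without that library.

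Of 13 cytokines and chemokines tested, 0 were called in dHSC livers (3 at an unadjusted p under 0.05, 0 by DESeq2). In WT livers 6 were called, all higher, with 9 and 9 by those counts. At an unadjusted p under 0.05 in the difference there were 4 of the 13, all lower: Cxcl1, Ccl4, Ccl7 and Il1b. The median change was 0.90 in dHSC livers and 2.21 in WT livers, and the median difference was -1.50. Without dHSC TCDD replicate 18 the median change in dHSC livers was 0.29 and the median difference -2.34. Cxcl1, which draws neutrophils, gave 9.89, 6.23 and 20.8 CPM in dHSC TCDD livers and 3.35, 9.06 and 7.39 in dHSC vehicle livers, and 9.34, 30.01 and 22.3 in WT TCDD livers and 1.43, 3.47 and 1.15 in WT vehicle livers. Both the TCDD groups and the vehicle groups overlap, and the difference was -2.44 ± 0.91 (SE; 95% interval -4.37 to -0.51). Ccl4, a macrophage chemokine, gave 1.03, 0.297 and 0.931 CPM in dHSC TCDD livers and 0.0905, 0.589 and 0.352 in dHSC vehicle livers, and 1.19, 3.02 and 2.89 in WT TCDD livers and 0.229, 0.0560 and 0.230 in WT vehicle livers, with a difference of -2.59 ± 1.01 (SE; 95% interval -4.73 to -0.44). Each of the 3 WT TCDD livers exceeded each dHSC TCDD liver for Ccl4, at levels of a few CPM or less. For Ccl7 the difference was -3.45 ± 1.20 and for Il1b, the cytokine interleukin 1 beta, -1.58 ± 0.73. Without WT vehicle replicate 13 the number of these genes called in WT livers was 3.

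Acute phase proteins, which hepatocytes secrete under inflammatory signals, had 4 members with an unadjusted p under 0.05 in the difference, all lower. Saa1, serum amyloid A1 (ENSMUSG00000074115, chromosome 7, 46740497 to 46742980), gave 237, 118 and 81.4 CPM in dHSC TCDD livers and 45.7, 57.6 and 21.5 in dHSC vehicle livers, and 744, 734 and 1276 in WT TCDD livers and 30.7, 25.1 and 55.5 in WT vehicle livers. Every WT TCDD liver exceeded every dHSC TCDD liver, and both vehicle groups overlap. Its change was 1.80 ± 0.59 in dHSC livers (adjusted p = 0.145) and 4.63 ± 0.66 (adjusted p = 5.20e-04) in WT livers, and the difference was -2.82 ± 0.82 (SE; 95% interval -4.57 to -1.08). Its near-identical neighbour Saa2 gave almost the same picture, with a difference of -2.86 ± 0.85, and reads may have been split between them or lost, so they are not separate evidence. Lcn2, lipocalin 2, which withholds iron from bacteria, gave 37.8, 18.04 and 150.3 CPM in dHSC TCDD livers and 6.25, 13.2 and 12.5 in dHSC vehicle livers, and 171, 246 and 191 in WT TCDD livers and 6.19, 8.63 and 10.6 in WT vehicle livers, with a difference of -1.89 ± 0.88 (SE; 95% interval -3.76 to -0.02), or -3.19 without dHSC TCDD replicate 18. Orm2, an acid glycoprotein of plasma, had a difference of -2.21 ± 0.96, or -3.91 without that library. Among dHSC TCDD livers that library had the highest level of both genes by far. Of 16 acute phase genes, 1 was called higher and 1 lower in dHSC livers, and 5 higher and 1 lower in WT livers. The difference was negative for 14 of the 16, against 6941 of all 14835 genes tested. The 4 lower ones at an unadjusted p under 0.05 are those named here. The list's median difference was -0.33, and with 1 library left out it ran from -0.79 without dHSC TCDD replicate 18 to -0.21 without WT vehicle replicate 1. The dHSC call of Lcn2 (adjusted p = 0.039) was lost in 9 of the 12 fits that left out 1 library, among them the one without dHSC TCDD replicate 18 (adjusted p = 0.27).

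**Figure D3:**
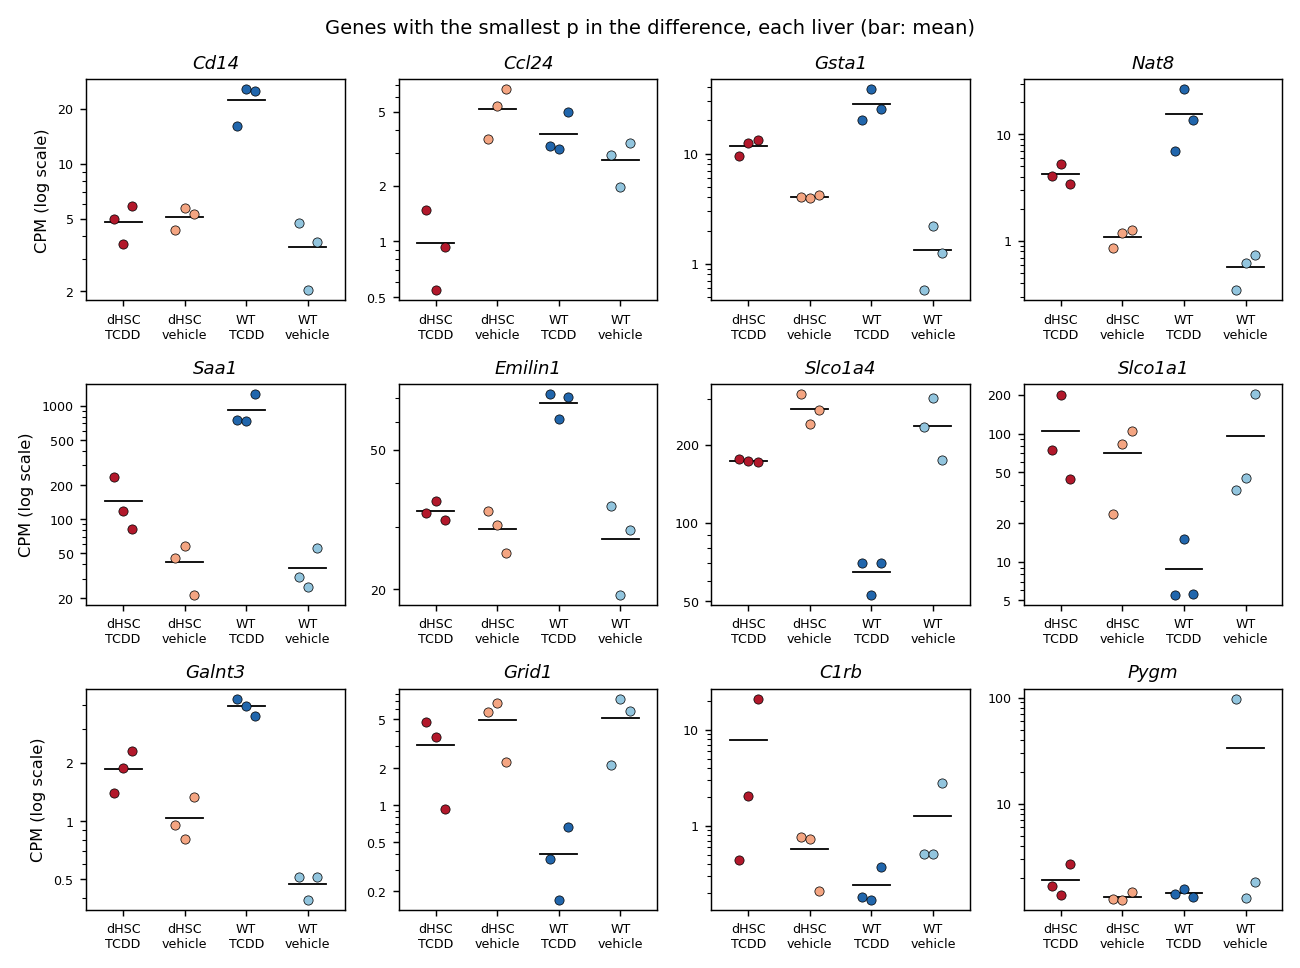
CPM on a log scale (axes differ between panels) in each liver for 12 of the genes with the smallest p in the difference, by group, with a bar at the mean of 3. Cd14, Saa1 and Emilin1 are highest in WT TCDD livers, and Slco1a4 and Grid1 are lowest there. In dHSC TCDD livers Saa1 also lies above all vehicle livers, and Slco1a4 lies below all dHSC vehicle livers. Single livers decide C1rb (dHSC TCDD replicate 18) and Pygm (WT vehicle replicate 1). The genes were chosen for a small p in the difference, so the separation of groups follows partly from that choice.

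Hepatocyte genes that TCDD lowered in WT livers include the transporter Slco1a4, whose difference was positive. Slco1a4, a transporter that takes up bile acids and drugs (ENSMUSG00000030237, chromosome 6, 141805440 to 141856199), gave 176, 173 and 172 CPM in dHSC TCDD livers and 314, 241 and 272 in dHSC vehicle livers, and 70.2, 52.8 and 70.4 in WT TCDD livers and 233, 303 and 174 in WT vehicle livers. The 3 WT TCDD livers lie below all others. Its log2 change was -0.67 in dHSC livers (adjusted p = 0.217) and -1.88 ± 0.25 (adjusted p = 2.83e-04) in WT livers, and the difference was 1.21 ± 0.34 (SE; 95% interval 0.49 to 1.94). Slco1a1, its male-biased neighbour, gave 73.8, 199 and 44.1 CPM in dHSC TCDD livers and 23.5, 83.2 and 106 in dHSC vehicle livers, and 5.50, 15.1 and 5.58 in WT TCDD livers and 36.3, 44.6 and 204 in WT vehicle livers, with a difference of 4.02 ± 1.19 (SE; 95% interval 1.50 to 6.55). With TCDD every dHSC liver lay above every WT liver, and the vehicle groups overlap. Its WT fall (adjusted p = 0.0323) was lost without WT TCDD replicate 2, WT TCDD replicate 14 or WT vehicle replicate 13 (adjusted p = 0.148, 0.138 and 0.182). Grid1, a glutamate receptor subunit, fell in WT livers with a log2 change of -3.62 ± 0.67 (adjusted p = 0.00449), and its difference was 2.95 ± 0.88 (SE; 95% interval 1.09 to 4.81). Of 13 hepatocyte identity genes tested, 0 had a negative difference, the median was 0.31, and 1 was called lower in each genotype, Serpina1e, an alpha-1 antitrypsin, with a difference of 2.27 ± 0.95, or 1.34 without WT vehicle replicate 7. Of 16 genes of bile acid synthesis and transport, 1 had a negative difference, with a median of 0.31. Over all 14835 genes tested, 6941 differences were negative. With 1 library left out the median of the identity genes ran from 0.13 without dHSC TCDD replicate 6 to 0.59 without WT vehicle replicate 1, and that of the bile acid genes from 0.14 without WT vehicle replicate 7 to 0.46 without dHSC vehicle replicate 5. None of these lists had a member called in the difference.

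Some of the sex-biased liver genes, whose pattern depends on growth hormone pulses, fell in both genotypes. Of 19 female-biased genes, 5 were called lower in dHSC livers and 9 in WT livers, the same 5 among them, and the median change was -2.16 in dHSC livers and -2.39 in WT livers. Counted in either direction, the dHSC calls were 3 without dHSC vehicle replicate 5 or 11, against 5 with all libraries, and the WT calls were 5 without WT TCDD replicate 8 or 14, against 10. Sult2a7, a sulfotransferase, gave 2.14, 1.33 and 0.645 CPM in dHSC TCDD livers and 239.9, 434 and 238 in dHSC vehicle livers, and 0.733, 1.37 and 0.910 in WT TCDD livers and 67.1, 339.6 and 316 in WT vehicle livers, and its difference was 0.12 ± 0.92 (SE; 95% interval -1.84 to 2.08). Sult3a1, another sulfotransferase, gave 2.43, 47.2 and 1.07 CPM in dHSC TCDD livers and 318, 639.8 and 285 in dHSC vehicle livers, and 1.37, 0.911 and 0.703 in WT TCDD livers and 113, 414 and 619 in WT vehicle livers. The liver of dHSC TCDD replicate 12 had 47.2 CPM, and the difference of 3.97 ± 1.39 was 0.69 without it. Sulfotransferase genes have near-identical copies between which reads may have been divided, so single members are uncertain. Of 14 male-biased genes tested, 5 were called lower in each genotype, 4 of them in both, and 4 had an unadjusted p under 0.05 in the difference: Slco1a1, Serpina1e and Susd4 higher and Cyp4a12a lower. Without WT vehicle replicate 13 the WT calls in either direction were 4, against 7 with all libraries. Susd4, a regulator of complement, had a difference of 2.03 ± 0.84, or 3.14 without WT TCDD replicate 2. Cyp4a12a, a fatty acid hydroxylase, had at most 2.56 CPM in any of these female livers. Igfbp1, an insulin-like growth factor binding protein, had a difference of -3.43 ± 1.29, or -1.61 without dHSC vehicle replicate 5, where it stood at 206 CPM.

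The steepest responses were shared. Hao1, the peroxisomal glycolate oxidase, fell to 0.0738, 0.346 and 0.0716 CPM in dHSC TCDD livers, against 122, 154 and 107 in dHSC vehicle livers, and to 0.412, 0.285 and 0 CPM in WT TCDD livers, against 144, 208 and 184 in WT vehicle livers. The log2 changes were -9.41 ± 0.79 (adjusted p = 7.07e-06) in dHSC livers and -9.59 ± 0.78 (adjusted p = 4.52e-06) in WT livers, and the difference was 0.17 ± 1.07 (SE; 95% interval -2.09 to 2.44). Nptx1, a pentraxin that acts at synapses, rose to 229, 260.4 and 46.1 CPM in dHSC livers and 237, 129 and 124 in WT livers, with no vehicle liver above 0.362 CPM, and a difference of 0.22 ± 0.97 (SE; 95% interval -1.84 to 2.28). Col9a2, a chain of cartilage collagen, had 7539 counts in dHSC TCDD livers against 1 in dHSC vehicle livers, a ratio of 7877 (95% counting interval 1413 to 311167), and 9216 counts in WT TCDD livers against 2 in WT vehicle livers, a ratio of 3820 (1057 to 31546). Hmx1, a homeobox factor, had 887 counts in dHSC TCDD livers against 2 in dHSC vehicle livers, a ratio of 463 (interval 128 to 3832), and with 1104 counts in WT TCDD livers and 0 in WT vehicle livers it was at least 305-fold higher there, against a floor of 3 counts over the group. These intervals cover counting error only. The mean level of Hmx1 with TCDD was 18.6 CPM in dHSC livers and 18.6 CPM in WT livers, and the fitted difference rests on the vehicle counts. Fut1 and Ecel1 had no count in either vehicle group, and their difference cannot be estimated. Against the same floor Fut1, a fucosyltransferase, was at least 29.3-fold higher in dHSC livers and at least 47.8-fold higher in WT livers, and Ecel1, a membrane protease, at least 47.4-fold higher in dHSC livers and at least 41.2-fold higher in WT livers. Amn, amnionless, a partner in vitamin B12 uptake, is the one among the largest rises with an unadjusted p under 0.05 in the difference, at -2.79 ± 1.18, or -0.86 without dHSC vehicle replicate 17. Among the genes chosen for their large fall, Lmod3, a muscle gene, rests on WT vehicle replicate 1: its difference was 4.91 ± 2.07, or 1.12 without it. These genes were chosen for the size of their response, so their folds are descriptions.

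Other genes with the smallest p were spread over other functions. Rab6b, a vesicle GTPase, gave 2.88, 2.37 and 2.87 CPM in dHSC TCDD livers and 0.272, 0.663 and 0.422 in dHSC vehicle livers, and 5.31, 2.73 and 3.39 in WT TCDD livers and 7.68, 1.57 and 1.78 in WT vehicle livers, with a difference of 2.54 ± 0.78 (SE; 95% interval 0.89 to 4.18), or 1.40 without WT vehicle replicate 1, which has the highest level of its group. Its dHSC vehicle livers lay below all WT vehicle livers, and its dHSC rise (adjusted p = 0.0251) was lost in 5 of the 12 fits that left out 1 library. C1rb, a complement protease, reached 21.1 CPM in dHSC TCDD replicate 18 and at most 2.81 CPM elsewhere, with a difference of 6.09 ± 1.64, or 3.45 without that library. Galnt3, an enzyme that starts O-linked sugar chains, had a difference of -2.18 ± 0.63, Slc41a2, a magnesium transporter, of -2.15 ± 0.63, and Psma8, a proteasome subunit of the testis, of -2.33 ± 0.69. For Galnt3 every WT TCDD liver exceeded every dHSC TCDD liver, at 1.40, 1.88 and 2.29 CPM in dHSC and 4.30, 3.93 and 3.51 CPM in WT livers. Fgf21, a hormone of liver stress, rose by 3.43 ± 0.77 (adjusted p = 0.0236) in dHSC livers and 5.53 ± 0.85 (adjusted p = 8.87e-04) in WT livers, with a difference of -2.10 ± 1.04, or -0.82 without dHSC vehicle replicate 17, and its dHSC call was lost without dHSC TCDD replicate 18, dHSC vehicle replicate 5 or dHSC vehicle replicate 11 (adjusted p up to 0.142). All 17 genes of the unfolded protein and stress response that were tested had a negative difference, with a median of -0.52 (-0.32 without WT TCDD replicate 8), and none had an unadjusted p under 0.05. Over all 14835 genes tested, 6941 differences were negative, and the genes of a list are not independent replicates.

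In other lists little passed the test in either genotype. With edgeR's quasi-likelihood test, 0 members were called with TCDD in either genotype among 12 genes of T and NK cells, 14 interferon-stimulated genes, 18 cell cycle genes, 16 genes of vitamin A storage and breakdown, 6 PDGF ligands and receptors, 17 of cholesterol synthesis, 16 of glucose metabolism and 16 of the circadian clock. At an unadjusted p under 0.05 these lists had between 0 and 6 members in a genotype, and DESeq2 called between 0 and 2. None of the lists had a member with an unadjusted p under 0.05 in the difference. Among 11 genes of bile duct cells, 0 were called in dHSC livers (3 at an unadjusted p under 0.05, 0 by DESeq2). In WT livers 3 were called (Epcam, Prom1 and Spp1, all higher), with 4 and 4 by those counts. Among 14 liver endothelial genes 0 were called in dHSC livers (2 and 0 by those counts). In WT livers 2 of these were called (Lyve1 and Vwf), with 2 and 2 by those counts. The WT counts were as low as 1 for bile duct genes (without WT vehicle replicate 7) and 0 for endothelial genes (without WT TCDD replicate 2, WT TCDD replicate 14 or WT vehicle replicate 13). These counts do not compare the genotypes, since among these genes only Spp1 had an unadjusted p under 0.05 in the difference.

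**Figure D4:**
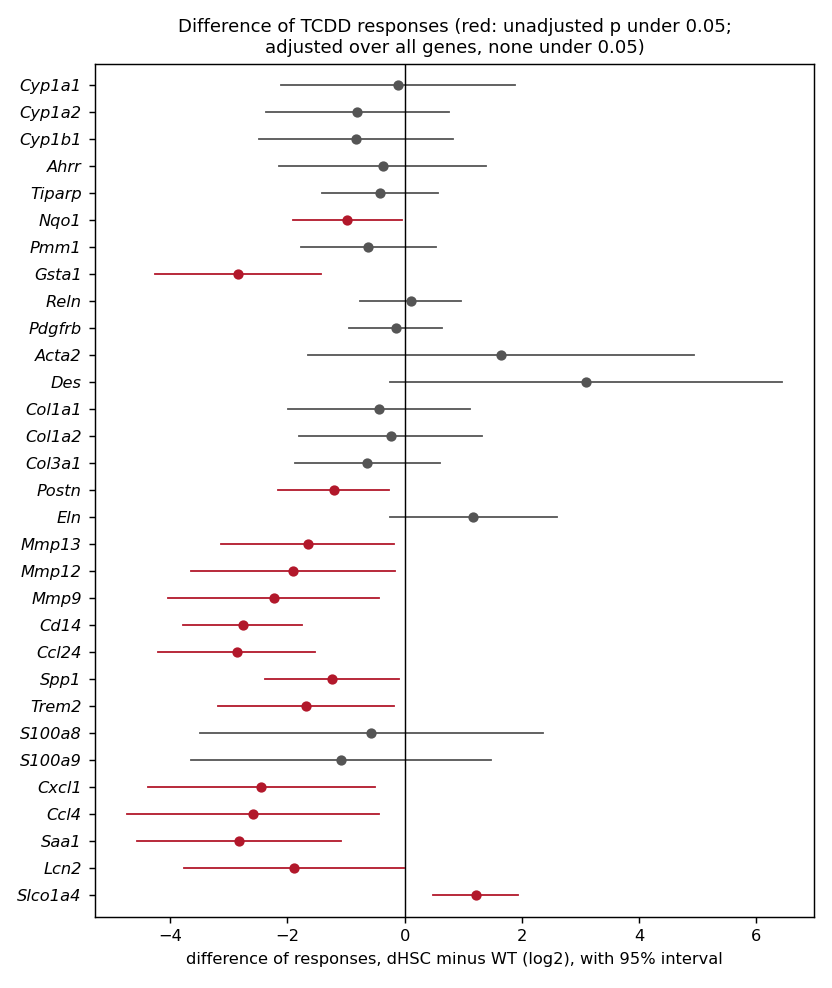
Difference of responses, dHSC minus WT, on the log2 scale for named genes, with points at the estimate and lines for the 95% interval; red marks an unadjusted p under 0.05. Intervals of Reln and Pdgfrb lie within 1 on either side of 0, those of Acta2 and Des are the widest among the stellate genes, and the immune and acute phase genes lie mostly to the left. The latter were named for a small p in the difference or a call with TCDD, so their side follows partly from that choice.

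**Figure D5:**
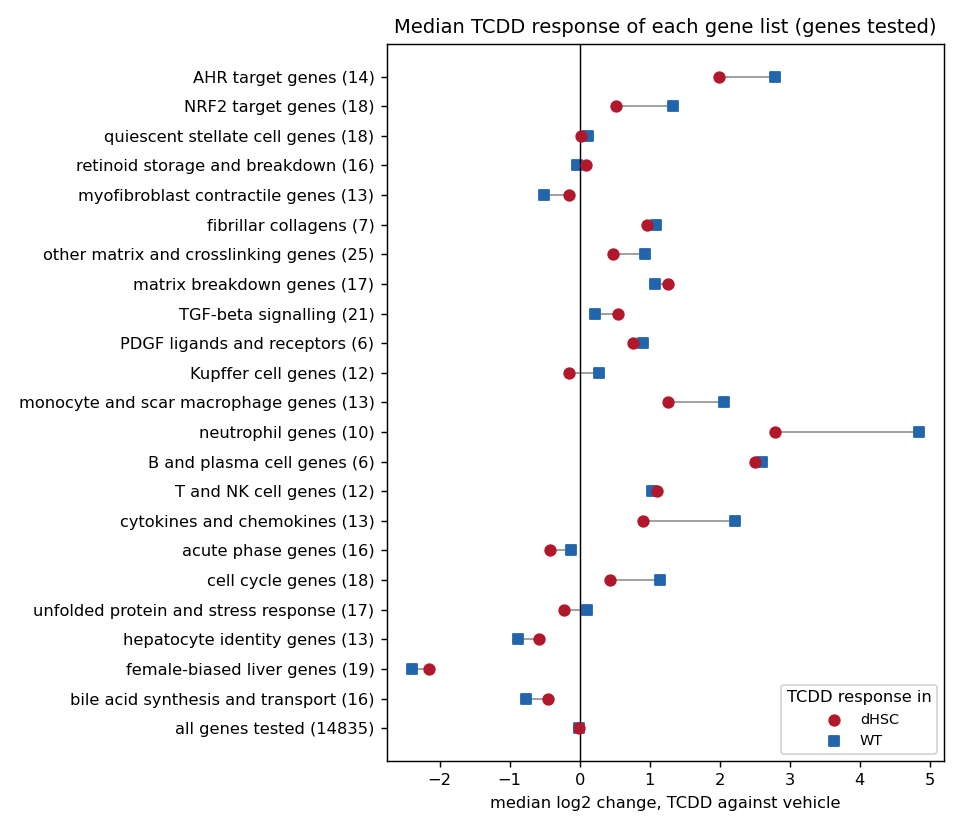
Median log2 change with TCDD over the tested members of 22 gene lists and over all genes, in dHSC livers (red circles) and WT livers (blue squares), with the number tested in brackets. The neutrophil list has medians of 2.79 in dHSC and 4.85 in WT livers, and the quiescent stellate list sits at 0.02 in dHSC and 0.12 in WT livers.

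The difference of responses is also the difference between genotypes with TCDD less the difference between them with vehicle. With TCDD, edgeR's quasi-likelihood test called 0 genes between dHSC and WT (0%), with 539 (3.63%) at an unadjusted p under 0.05, a smallest adjusted p of 0.129 and 22 called by DESeq2. With vehicle it called 0 genes (0%), with 220 (1.48%) at an unadjusted p under 0.05, a smallest adjusted p of 0.444 and 5 called by DESeq2. For Cd14, Saa1, Emilin1 and Slco1a4 the difference lay mostly with TCDD: dHSC against WT was -2.21, -2.66, -1.02 and 1.43 with TCDD and 0.55, 0.16, 0.10 and 0.22 with vehicle. For Rab6b, Pygm and Ttn it lay mostly with vehicle, at -3.03, -4.65 and -7.94.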

How the data were processed

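Poly-A selected RNA from 10 mg of liver per mouse was sequenced, per the labels' protocols. The deposited values are raw read counts per gene, which the authors made with HISAT2 2.1.0 and HTSeq 0.11.3 on GRCm38, per the submitters' processing notes, which also name FastQC 0.11.9 and DESeq2 1.22.2; the strand setting is not given in the sources used here. Samples were grouped by title. Gene names, types and coordinates came from GENCODE annotation of the same build (gene identifiers of all 55536 genes matched), and promoter windows from RefSeq, GRCm38.p6. From the counts, edgeR 4.0.16 (R 4.3.3, limma 3.58.1) scaled libraries by TMM, kept 14835 genes by filterByExpr and fitted 1 mean per group over all 18 libraries. Each contrast had a quasi-likelihood test, and p-values were adjusted by Benjamini and Hochberg's method across every gene kept, with a threshold of 0.05. Standard errors are the log2 fold change over the root of F, and intervals use the t distribution of the fit. For steep responses such a value follows from the test and is no direct measure of the spread among livers. Those of both responses need not combine into that of their difference. The script was tested on simulated data with less spread between livers than these, which checks the code and not its power here. Named genes were those with the smallest p in either direction of the difference (up to 10 each), the 10 largest called rises and falls per genotype (at least 1 CPM on average, no predicted genes), called list members, and a fixed set of AHR and stellate genes. A gene that this rule names is not reported here. Uncalled list members with an unadjusted p under 0.05, and Aldh3a1, were named after their values were seen. The members and the gene lists were chosen with earlier results of these data known. Replicates differed by more than sampling noise in every pair. Alternatives were RLE scaling, other filters, a fit of the 12 libraries, DESeq2 1.42.0, a 2-fold test, a covariate, sets of 6 mouse numbers and left-out libraries. The mean of both responses and the joint removal of 3 libraries were added after seeing the data.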

Additional observations from a re-analysis of the deposited data

How the results depend on the processing

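Of 158 results, 149 are single-gene values, 143 of which could be computed under all 23 alternatives. In every alternative that gave them a value, 134 kept their sign. The count of 0 in the difference of responses held in every edgeR alternative, and DESeq2 called 3. Counts that moved by over 1.5 times are given here for the dHSC response, the WT response and the genes called in both. Tested against a 2-fold change they were 139, 269 and 118, with 458 for the mean response. Without dHSC vehicle replicate 17 and dHSC TCDD replicate 18, the dHSC count was 173 and the shared count 167. Without the 5 libraries of the series that stand apart, counts were 214, 1584 and 203. Without WT vehicle replicate 1 and those dHSC libraries, they were 216, 1371 and 208, with a median difference along the mean response of -0.58. With a covariate for the non-protein-coding share of counts they were 792, 1926 and 683, with 3013 for the mean response and 9 for dHSC against WT with TCDD. DESeq2 gave 763, 1368 and 620, with 5 for dHSC against WT with vehicle and 22 with TCDD. Leaving out 1 library gave 169 to 389, 445 to 1110 and 158 to 338, and 0 to 1 for dHSC against WT with TCDD. The difference changed sign for Cyp1a1 (0.39), Ahrr (0.34) without the 2 dHSC libraries, and likewise (0.40 and 0.35) without the 5. Without the 3 libraries it was 0.66 for Ahrr, -0.39 for Des, -0.39 for Acta2 and -2.97 for Aldh3a1. With 1 library left out it ranged across 0 for Cyp1a1 (-1.35 to 0.30), Ahrr (-1.73 to 0.0771), Aldh3a1 (-2.48 to 7.15), Ahr (-0.025 to 0.59), Reln (-0.17 to 0.33), Pdgfrb (-0.36 to 0.0399), Des (-0.17 to 3.67), Col1a2 (-1.14 to 0.0686), Tgfb2 (-0.96 to 0.41), Gpnmb (-2.58 to 0.87), S100a8 (-3.14 to 0.32), Hao1 (-1.08 to 0.97), Nptx1 (-0.16 to 0.88) and Sult2a7 (-0.33 to 0.57). The cause was not tested. No paired analysis was possible because no mouse number occurs in 2 groups; sets of 6 consecutive numbers as a term moved no count by over 1.5 times. With 3 livers per group the 95% interval reached a median of 1.32 to either side on the log2 scale. Differences of 2-fold, and larger ones as well, were thus mostly not detectable. Cd14, at -2.76, had an adjusted p of 0.431 in edgeR's quasi-likelihood test. The 0 calls therefore do not show that differences above 2-fold are absent.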

Other observations

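The genes with an unadjusted p under 0.05 in the difference were not spread evenly over the WT response. Of the 86 with a lower difference, 13 were called higher and 4 lower in dHSC livers, 54 were called higher and 1 lower in WT livers, and 28 in neither. Of the 147 with a higher difference, 5 were called higher and 11 lower in dHSC livers, 0 were called higher and 46 lower in WT livers, and 96 in neither. The numbers of such genes turned round without single libraries, to 133 higher and 266 lower without dHSC TCDD replicate 18, and to 101 and 251 without it, dHSC vehicle replicate 17 and WT vehicle replicate 1. Since the difference contains the WT response with a minus sign, these counts follow partly from the choice of genes and are given as a description. The median response of the 86 was 0.32 in dHSC livers and 2.11 in WT livers, and that of the 147 was 0.66 in dHSC livers and -2.17 in WT livers.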
